A study of Mus musculus with 12 samples.

Results

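The Hox cluster genes were taken as every gene of the deposited FPKM table whose MGI symbol is Hoxa, Hoxb, Hoxc or Hoxd followed by a paralog number, which gave 39 of 48034 genes, 11 in Hoxa, 10 in Hoxb, 9 in Hoxc and 9 in Hoxd. The RNA came from subclone 53a, a single clone of IMCD3, the mouse inner medullary collecting duct line. As known of the study, this clone makes a dominant-negative form of a kidney epithelial transcription factor when mifepristone is given. The 4 groups, each of 3 libraries named A, B and C, were vehicle, vehicle with 100 mM added NaCl, mifepristone, and mifepristone with 100 mM added NaCl, and all 4 carry the inducible mutant. Since no library comes from cells lacking it, mifepristone's own action and that of the mutant cannot be told apart. Whether the 3 libraries per group are from different cultures is not in the labels, and the p-values reflect only library-to-library spread, which could be technical.

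Hox genes encode homeodomain transcription factors that give cells their position along the body axis. They lie in 4 clusters that share a paralog numbering, and their order on the chromosome follows the order in which they are used along the axis, with low numbers in front and high numbers behind. Mature tissues keep part of this code, usually in blocks of adjacent genes held on or off by Trithorax and Polycomb proteins. In the kidney, the paralog group 11 genes are needed for the metanephric kidney to form, and the Hoxb7 promoter is widely used to drive transgenes in the ureteric bud and the collecting duct that comes from it.

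In GENCODE M21 on GRCm38, Hoxa spans chr6:52155590-52260880 (minus strand, 105.3 kb), Hoxb chr11:96194316-96368256 (plus, 173.9 kb), Hoxc chr15:102921103-103036852 (plus, 115.8 kb) and Hoxd chr2:74668310-74765142 (plus, 96.8 kb). Promoters of 22 of the 39 Hox genes were found in a RefSeq table (GRCm38.p6) of stretches around gene starts, and none of Hoxb2, Hoxb3, Hoxb6 or Hoxb13 was among them. Both strands were searched for the hexamer GTTAAT, a single arm of the palindromic site known for the family of the mutated factor. It occurred in promoters of 3 of the 22 Hox genes (13.6%; Hoxa9, Hoxa10 and Hoxd8) and of 8.2% of all 27025 genes with a promoter in the table, and a match is a description of the letters, not a binding site. The 3 promoters below are shown because the authors' deposited table marks a nearby ChIP peak for Hoxa10 and Hoxa3, and because Hoxa10 and Hoxa9 hold the hexamer. The other Hoxa10 promoter (chr6:52234890-52235189) lacks the hexamer and is not shown. The 3 promoters are read on the strand of the gene, and capitals mark the hexamer or its reverse complement.
Hoxa10, chr6:52240805-52241104, minus strand: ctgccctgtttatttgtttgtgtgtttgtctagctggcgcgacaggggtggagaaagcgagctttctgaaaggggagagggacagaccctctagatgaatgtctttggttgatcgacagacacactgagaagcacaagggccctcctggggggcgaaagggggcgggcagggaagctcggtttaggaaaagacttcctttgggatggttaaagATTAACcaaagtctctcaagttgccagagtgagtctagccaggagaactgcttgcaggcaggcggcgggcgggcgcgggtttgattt
Hoxa9, chr6:52227321-52227620, minus strand: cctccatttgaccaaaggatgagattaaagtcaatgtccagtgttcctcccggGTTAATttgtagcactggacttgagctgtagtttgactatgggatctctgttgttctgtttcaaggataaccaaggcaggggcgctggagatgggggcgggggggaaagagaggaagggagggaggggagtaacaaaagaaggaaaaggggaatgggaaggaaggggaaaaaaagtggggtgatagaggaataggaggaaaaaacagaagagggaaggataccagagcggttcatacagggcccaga
Hoxa3, chr6:52213018-52213317, minus strand, without the hexamer: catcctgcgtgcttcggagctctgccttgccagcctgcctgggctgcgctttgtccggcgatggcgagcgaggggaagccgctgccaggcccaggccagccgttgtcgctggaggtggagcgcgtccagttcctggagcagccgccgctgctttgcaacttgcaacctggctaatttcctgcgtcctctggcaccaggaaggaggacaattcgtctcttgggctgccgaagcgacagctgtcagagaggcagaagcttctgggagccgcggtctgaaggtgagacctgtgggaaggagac

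The clusters also hold microRNA genes that are known to repress Hox messages, and 2 of these loci were assigned reads. Their mature 5p arms are shown with those of their same-seed copies in the other clusters to show the seed that each pair has in common. Capitals mark the seed, bases 2 to 8, and the sequences are from RefSeq (GRCm38.p6).
miR-10a-5p, Mir10a in Hoxb, chr11:96317186-96317208, plus strand: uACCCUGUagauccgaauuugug
miR-10b-5p, Mir10b in Hoxd, chr2:74726074-74726096, plus strand: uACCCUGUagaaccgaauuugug
miR-196a-5p, Mir196a-1 in Hoxb, chr11:96265187-96265208, plus strand: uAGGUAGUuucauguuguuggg
miR-196b-5p, Mir196b in Hoxa, chr6:52230129-52230150, minus strand: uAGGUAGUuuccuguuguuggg

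Reads recovered from the deposited values summed to between 41940955 and 49270776 per library, and 14044 genes were tested, those that reached 1 FPKM (fragments per kilobase of transcript, scaled to library depth) in 3 or more libraries. A count of 0 at this depth allows up to 3 reads, or 0.061 to 0.072 CPM. Deviations of the libraries from their group mean ran along transcript length, across 14044 genes, with a Spearman rho of -0.45 in vehicle A and -0.52 in mifepristone C, and of -0.29 to 0.46 in the other 10. For each comparison the counts of calls over the Hox genes and over all genes were also made without these 2 libraries. Counts by cluster, by paralog position and of the other gene lists were not. Of the marker lists, all 6 epithelial genes reached a mean of 1 FPKM over all 12 libraries, against 3 of 11 for principal cells of the collecting duct. For intercalated cells 1 of 6 did, for the thick ascending limb 1 of 2 and for the proximal tubule 0 of 5. Lrp2, of the proximal tubule list, had a mean of 1.2 FPKM in vehicle and 0.207 in mifepristone libraries. The sum of the thick ascending limb list ran from 3.67 to 4.12 FPKM in vehicle and 0.122 to 0.24 in mifepristone libraries. Summed over its 11 genes, the principal cell list ran from 5.74 to 6.71 FPKM in vehicle libraries, 3.8 to 3.96 with NaCl, 12.4 to 12.8 with mifepristone and 12.5 to 13.6 with both. The fibroblast list ran from 0.249 to 0.342 FPKM in vehicle and 5.61 to 6.31 in mifepristone libraries, of which only Dcn reached a mean of 1, and 0 of 4 endothelial markers did. The part of these lists in the Hox values was not tested.

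The cells expressed the Hoxa and Hoxb clusters nearly in full and Hoxc and Hoxd hardly at all. In Hoxa 10 of 11 genes passed the expression filter (all but Hoxa13), in Hoxb 9 of 10 (all but Hoxb1), and in Hoxc and Hoxd 0 of 9 each. Over all 12 libraries together, the Hoxa genes collected 163841 reads, the Hoxb genes 285722, the Hoxc genes 107 and the Hoxd genes 4. A total of 6 genes had 0 reads in all 12 libraries, namely Hoxc12, Hoxd1, Hoxd3, Hoxd10, Hoxd11 and Hoxd12. A count of 0 limits each of them to the 3 reads per library given above and does not show that they are silent. Of the 19 genes that passed, 18 were at 1 FPKM or more in every library.

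**Figure D1:**
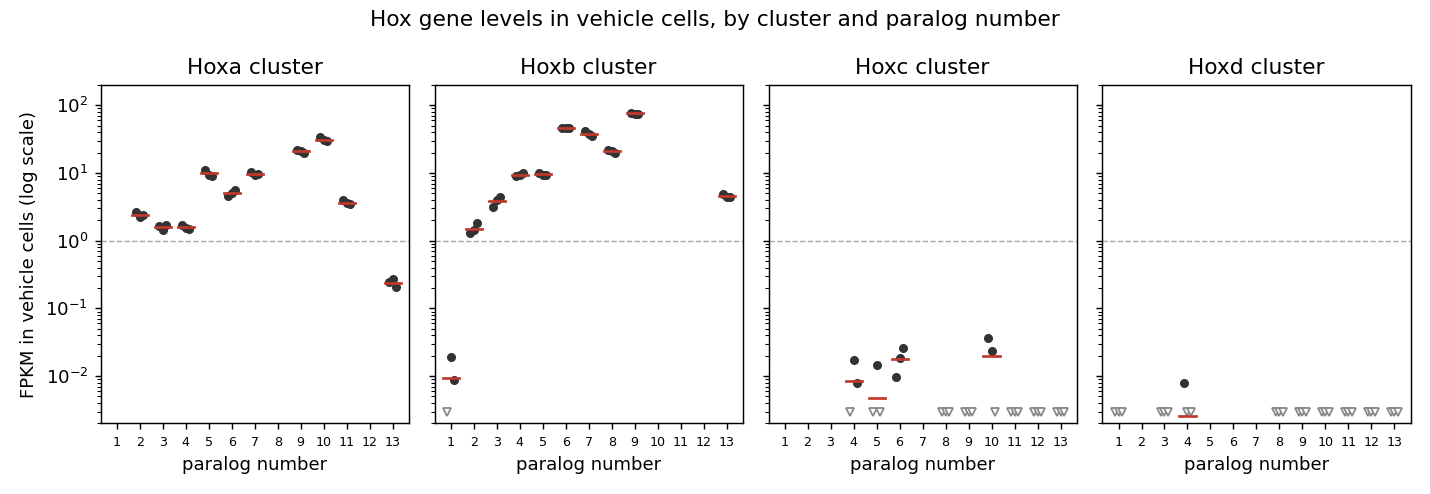
FPKM (log scale) of Hox genes in the 3 vehicle libraries, by cluster and paralog number. Points are libraries, red bars group means, open triangles libraries with 0 reads (drawn at the bottom of the axis, not at a value), and the dashed line marks 1 FPKM. The highest genes are Hoxa10 (31.2 FPKM) in Hoxa and Hoxb9 (76.0 FPKM) in Hoxb, and no Hoxc or Hoxd gene is above 0.0363 FPKM.

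FPKM is per length, so its comparison between genes rests on the length taken for each gene. In vehicle cells FPKM was highest at paralog number 9 in Hoxb and 10 in Hoxa. It was lower toward both ends, though not steadily from gene to gene. In reads Hoxa9 lay above Hoxa10, with 15861 and 13923 in the vehicle libraries together, over 5580 and 3270 annotated exon bases. Hoxb9, a gene of the thoracic part of the axis, was highest at 76.0 ± 1.73 FPKM (SD, n = 3), which ranked 903 of the 14044 tested genes, whose median was 8.46 FPKM. Hoxb6 followed with 46.6 ± 0.436, then Hoxb7, the collecting duct lineage gene, with 38.0 ± 3.19 and Hoxa10 with 31.2 ± 2.08, and the libraries of each of these 4 genes lay apart from those of the next. Hoxb8 (21 ± 0.962) and Hoxa9 (20.8 ± 1.17) could not be told apart, nor could Hoxa5 (9.84 ± 1.02), Hoxa7 (9.80 ± 0.502), Hoxb5 (9.63 ± 0.38) and Hoxb4 (9.39 ± 0.485), since the libraries of neighbours in that order overlapped. Hoxa6 (5.10 ± 0.491), Hoxb13 (4.63 ± 0.305), Hoxb3 (3.87 ± 0.671) and Hoxa11 (3.66 ± 0.257) likewise overlapped from neighbour to neighbour. Hoxa2, which patterns the hindbrain and the second arch, stood at 2.42 ± 0.208 FPKM. Hoxa3 (1.58 ± 0.141), Hoxa4 (1.57 ± 0.113) and Hoxb2 (1.5 ± 0.267) were the lowest that passed, with overlapping libraries.

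Of the 7 paralog pairs with both members expressed, the Hoxb member was higher in 5. In vehicle cells Hoxb6 was 9.19 ± 0.816 times Hoxa6 (ratio of FPKM, SD, n = 3), Hoxb4 6 ± 0.729 times Hoxa4, Hoxb7 3.88 ± 0.228 times Hoxa7, Hoxb9 3.65 ± 0.148 times Hoxa9 and Hoxb3 2.46 ± 0.464 times Hoxa3. Hoxb5 and Hoxa5 were level, at a ratio of 0.984 ± 0.0634, and Hoxb2 lay below Hoxa2 at 0.625 ± 0.134. These ratios rest on gene length too. Vehicle reads summed to 26730 for Hoxb9 and 15861 for Hoxa9, over 2574 and 5580 annotated exon bases. For Hoxb2 and Hoxa2 they summed to 720 and 586, over 3488 and 1775 bases. Sequence shared between paralogs was short: at most 3 stretches of 50 bases occurred in transcripts of 2 genes of different clusters (Hoxa6 with Hoxb4). Neither the counting program nor its use of strand is stated in the sources used here, and reads of overlapping antisense transcripts cannot be told apart. This touches Hoxb3 and Hoxb2, of whose exon bases 52.9% and 27.3% overlap Hoxb3os. It also touches Hoxa11 with 35% overlapping Hoxa11os, Hoxa7 with 20.4% overlapping Hoxaas3, and Hoxa4 with 16% overlapping Gm29430. Of the exon bases of Hoxa3, 8.4% overlap Hoxaas2, 7.3% Gm29430, 4.9% Hoxaas3 and 4.9% 5730596B20Rik, of which the last reached 2.67 FPKM.

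The mifepristone comparison without NaCl addressed the response to mifepristone, which induces the mutant, at normal salt. Most of the middle of both expressed clusters rose, led by Hoxa6, Hoxa5, Hoxb6 and Hoxb9, while Hoxb13 at the outer end of Hoxb fell. Of the 19 Hox genes tested, limma called 12 higher and 2 lower at an adjusted p under 0.05. Across all 14044 genes 59.7% were called, 28.3% higher and 31.5% lower. The median log2 fold change was 0.23 over the 19 Hox genes and -0.01 over all genes. The RNA is from bulk cultures, so fewer cells with a transcript and less of it per cell cannot be told apart.

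Hoxa6 stood at 4.65, 5.04 and 5.62 FPKM in vehicle cells, 6.38, 7.61 and 7.24 in vehicle cells with NaCl, 15.4, 14.5 and 9.35 in mifepristone cells and 5.29, 5.36 and 6.33 in mifepristone cells with NaCl. Every mifepristone library lay above every vehicle library, and mifepristone C lay below A and B. The log2 fold change on the log2(FPKM + 0.5) scale was 1.25 (SE 0.157, limma adjusted p = 3.98e-05), and it ranged from 1.12 to 1.47 over 21 alternative settings, each of which called it. Hoxa6 (chr6:52206288-52208722, minus strand) belongs with Hoxa5 to the central part of the cluster, which acts in the neck and thorax.

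The 3 libraries of each group gave Hoxa5 11, 9.47 and 9.05 FPKM (vehicle), 10.9, 9.43 and 9.82 FPKM (vehicle plus NaCl), 18.6, 20.1 and 20.9 FPKM (mifepristone) and 10.8, 9.79 and 9.39 FPKM (both). Hoxa5, a gene needed for lung and cervical vertebra development, thus rose in each mifepristone library to about the same degree, with no overlap, and lay at the vehicle level in all other groups. Its log2 fold change was 0.98 (SE 0.081, limma adjusted p = 1.26e-06), a 1.97-fold rise. Hoxa5 lies at chr6:52201754-52204587, beside Hoxa6.

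Hoxb9 had 77.9, 75.5 and 74.6 FPKM in the vehicle libraries A, B and C, 58.6, 57 and 56.9 with NaCl, 131.2, 133.3 and 128.1 with mifepristone and 73.6, 68.1 and 69.4 with both. Hoxb6 stood at 46.2, 47 and 46.8 FPKM in vehicle cells, 52.4, 52.2 and 51.9 in vehicle cells with NaCl, 85.2, 81.7 and 80.2 in mifepristone cells and 55.3, 51.6 and 51.9 in mifepristone cells with NaCl. Both genes were highest in the 3 mifepristone libraries without NaCl, and no library of another group reached them. Hoxb9 (chr11:96271457-96276595, plus strand) rose by a log2 fold change of 0.78 (SE 0.04, limma adjusted p = 2.19e-08), and Hoxb6 (chr11:96292476-96301569), by 0.81 (SE 0.037, limma adjusted p = 9.52e-09).

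The 3 libraries of each group gave Hoxa11 3.94, 3.62 and 3.43 FPKM (vehicle), 3.46, 3.23 and 3.04 FPKM (vehicle plus NaCl), 5.6, 5.74 and 7.09 FPKM (mifepristone) and 2.68, 2.59 and 2.72 FPKM (both). Hoxa11, 1 of the paralog group 11 genes of kidney formation, was highest in the 3 mifepristone libraries and rose by 0.67 on the log2 scale (SE 0.081, limma adjusted p = 3.05e-05). Its partners Hoxc11 and Hoxd11 had 1 and 0 reads in all libraries together. Hoxa3 stood at 1.63, 1.43 and 1.7 FPKM in vehicle cells, 1.42, 1.55 and 1.61 in vehicle cells with NaCl, 3.15, 2.97 and 2.27 in mifepristone cells and 1.26, 1.23 and 1.22 in mifepristone cells with NaCl. Hoxa3, which patterns the pharyngeal arches, rose by 0.65 (SE 0.095, limma adjusted p = 0.000127). Its annotated start lies between those of Hoxa6 and Hoxa7, so its gene body runs across Hoxa4, Hoxa5 and Hoxa6, and Hoxb5 rose by 0.56 (SE 0.052, limma adjusted p = 3.04e-06).

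The 3 libraries of each group gave Hoxb7 41.3, 37.8 and 34.9 FPKM (vehicle), 30, 28.3 and 30.5 FPKM (vehicle plus NaCl), 43.5, 44 and 52.1 FPKM (mifepristone) and 25.6, 25.7 and 23.8 FPKM (both). Hoxb7 rose by 0.29 (SE 0.076, limma adjusted p = 0.00726), with every mifepristone library above every vehicle library. Rises under 0.30 on the log2 scale were also called for Hoxb4 (0.29), Hoxa7 (0.23), Hoxa9 (0.21) and Hoxa10 (0.18). The values of Hoxa10, a gene of uterine and hindlimb patterning, ran from 29.4 to 33.5 FPKM in vehicle cells and from 34.5 to 36.8 with mifepristone. Among those not called were Hoxa4 (0.12), Hoxa2 (0.10), Hoxb3 (-0.03) and Hoxb2 (-0.08), at paralog numbers 2 to 4.

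Hoxb13 had 4.98, 4.43 and 4.48 FPKM in the vehicle libraries A, B and C, 2.97, 3.25 and 2.92 with NaCl, 2.02, 1.95 and 2.25 with mifepristone and 1.38, 1.38 and 1.31 with both. Hoxb13, a gene of the tail end of the axis, hindgut and prostate, thus had its highest values in vehicle cells and its lowest with both treatments, and the 4 groups did not overlap. With mifepristone it fell by 1 on the log2 scale (SE 0.061, limma adjusted p = 1.06e-07). The annotation places it at chr11:96194316-96197447 and its start 171.4 kb from that of Hoxb1, where that of Hoxb9, the next Hox gene, is at 94.3 kb. The other fall, that of Hoxb8, was small at -0.13 (SE 0.05, limma adjusted p = 0.047), with vehicle libraries at 21.8, 21.2 and 19.9 FPKM and mifepristone libraries at 17.9, 19.7 and 19.8. Without vehicle A and mifepristone C together Hoxb8 was no longer called (adjusted p = 0.0757), which leaves 12 Hox genes higher and 1 lower. Over all alternatives its adjusted p ran from 0.0101 to 0.178.

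Further expressed genes are given here in every library, from the front of the clusters to the back. For Hoxa2 the values were 2.64, 2.23 and 2.39 FPKM in vehicle, 1.56, 1.83 and 1.56 in vehicle plus NaCl, 2.5, 2.66 and 2.73 in mifepristone and 1.28, 1.25 and 1.08 in mifepristone plus NaCl libraries. Hoxa2 was lower with NaCl in either cell state, and lowest with both treatments. Hoxb2, also a hindbrain gene, had 1.28, 1.42 and 1.8 FPKM in vehicle, 1.42, 1.45 and 1.43 in vehicle plus NaCl, 1.31, 1.33 and 1.49 in mifepristone and 1.25, 1.08 and 1.18 in mifepristone plus NaCl libraries. Hoxb3 showed 3.14, 4.01 and 4.46 FPKM in vehicle, 3.41, 4.08 and 3.77 in vehicle plus NaCl, 4.41, 4.31 and 2.74 in mifepristone and 1.99, 2.25 and 2.33 in mifepristone plus NaCl libraries. For both genes the 3 libraries with both treatments lay below all others, and the other 3 groups overlapped. Hoxa4 gave 1.69, 1.56 and 1.47 FPKM in vehicle, 2.02, 2.15 and 2.47 in vehicle plus NaCl, 1.66, 1.82 and 1.76 in mifepristone and 2.11, 2.34 and 2.23 in mifepristone plus NaCl libraries. Its paralog Hoxb4 gave 8.9, 9.39 and 9.87 FPKM in vehicle, 12.7, 12.5 and 12.5 in vehicle plus NaCl, 11.8, 12 and 10.9 in mifepristone and 10.9, 10.3 and 10.7 in mifepristone plus NaCl libraries. Hoxa4 was higher with NaCl in either cell state, and Hoxb4 was lowest in vehicle cells.

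In the centre of Hoxb, Hoxb5 had 10.1, 9.4 and 9.43 FPKM in vehicle, 10.1, 9.81 and 9.93 in vehicle plus NaCl, 14.6, 14 and 14.7 in mifepristone and 9.06, 7.75 and 8.14 in mifepristone plus NaCl libraries. Next to Hoxb7, Hoxb8 had 21.8, 21.2 and 19.9 FPKM in vehicle, 16.8, 15.8 and 16.4 in vehicle plus NaCl, 17.9, 19.7 and 19.8 in mifepristone and 15.2, 14.8 and 14 in mifepristone plus NaCl libraries. The mifepristone libraries of Hoxb5 lay above all others, and Hoxb8 was lower with NaCl in either cell state. At the back of Hoxa, Hoxa9 had 21.7, 21.3 and 19.5 FPKM in vehicle, 20.2, 20.0 and 20.4 in vehicle plus NaCl, 23.6, 23.2 and 26.0 in mifepristone and 13.8, 13.8 and 12.3 in mifepristone plus NaCl libraries. Hoxa10, the next gene, had 33.5, 30.8 and 29.4 FPKM in vehicle, 32.1, 30.4 and 31.8 in vehicle plus NaCl, 34.9, 34.5 and 36.8 in mifepristone and 26.7, 25.8 and 24.5 in mifepristone plus NaCl libraries. Both were highest in the 3 mifepristone libraries and lowest in the 3 with both treatments, with no overlap of these groups with the others.

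By position, 1 of 5 tested genes with paralog numbers 1 to 3 rose, 7 of 9 with numbers 4 to 8 rose and 1 fell, and 4 of 5 with numbers 9 to 13 rose and 1 fell. The median log2 fold change of the central 4 Hoxa genes was 0.60 and that of the central 5 Hoxb genes 0.29. By cluster, 7 of 10 Hoxa genes rose and 0 fell, and 5 of 9 Hoxb genes rose and 2 fell. The summed FPKM of the cluster went from 87.8 ± 4.80 to 119.0 ± 1.12 in Hoxa and from 210.7 ± 4.66 to 312.3 ± 0.216 in Hoxb (SD, n = 3), and no test was made of these sums.

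**Figure D2:**
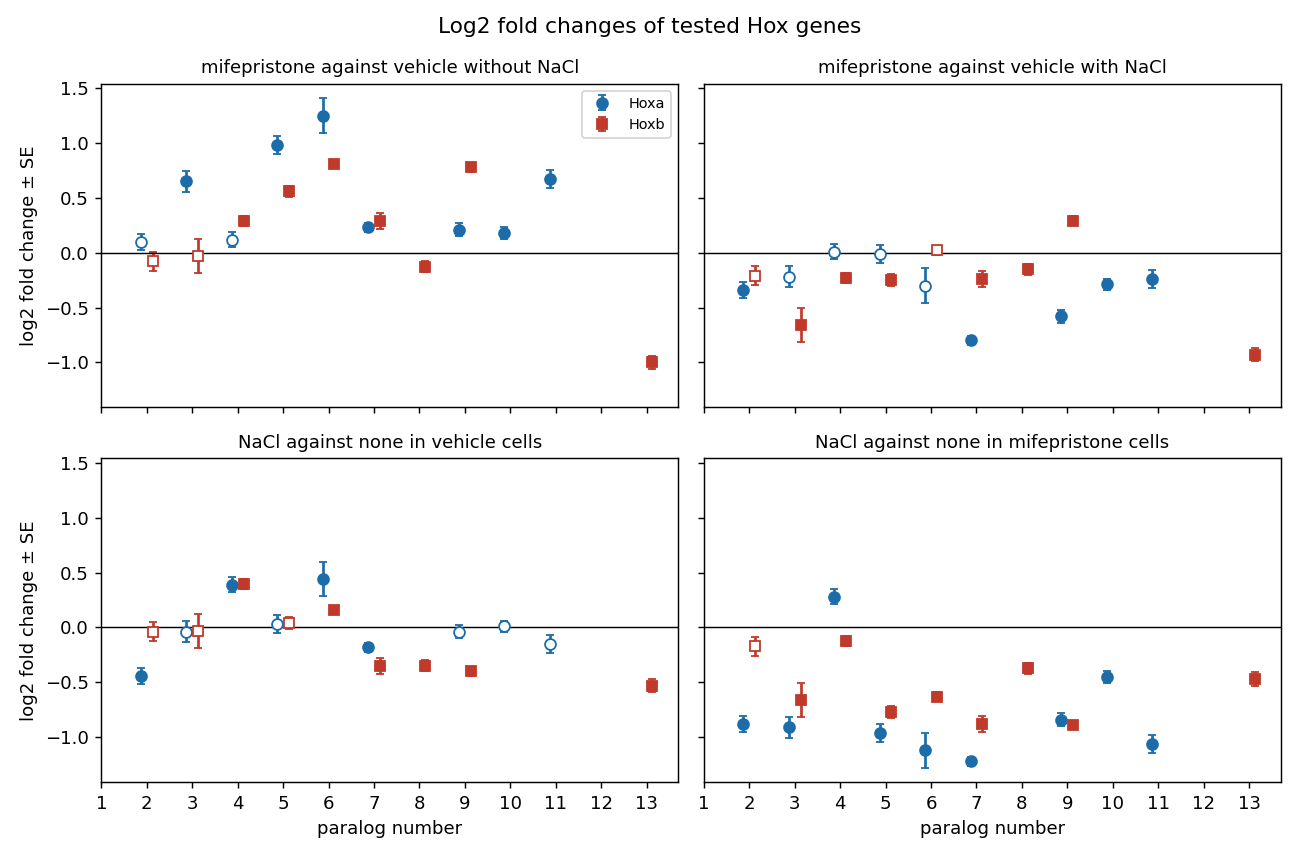
Log2 fold change ± SE of tested Hox genes by paralog number in the 4 comparisons, with Hoxa as blue circles and Hoxb as red squares (filled where limma gave an adjusted p under 0.05). Without NaCl the largest rises with mifepristone are those of Hoxa6 (1.25), Hoxa5 (0.98), Hoxb6 (0.81) and Hoxb9 (0.78), and Hoxb13 lies at -1. With NaCl in mifepristone cells all but Hoxa4 lie below 0.

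In the presence of NaCl, mifepristone lowered Hox genes or left them uncalled, with the exception of Hoxb9. Limma called 1 of 19 higher and 11 lower, where all 14044 genes gave 58.7% called, 26.8% higher and 31.9% lower. The median was -0.24 over the Hox genes and -0.03 over all genes. Hoxb9, at 57.5 ± 0.965 FPKM in vehicle cells with NaCl and 70.4 ± 2.9 with both treatments (SD, n = 3), rose by 0.29 (SE 0.04, limma adjusted p = 7.71e-05). This comparison shares no library with the one without NaCl.

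Hoxa7 stood at 10.4, 9.38 and 9.66 FPKM in vehicle cells, 8.66, 8.46 and 8.55 in vehicle cells with NaCl, 11.2, 11.6 and 11.9 in mifepristone cells and 4.78, 4.54 and 4.74 in mifepristone cells with NaCl. Hoxa7, a thoracic patterning gene, thus had its lowest values with both treatments, below every library of the other groups. With NaCl present mifepristone lowered it by a log2 fold change of -0.80 (SE 0.042, limma adjusted p = 2.35e-08), the smallest adjusted p of the 19 genes in this comparison. Hoxb13 fell by 0.93 (SE 0.061, limma adjusted p = 1.71e-07), so that it was lower with mifepristone at either salt level. Hoxb3, with 3.41 to 4.08 FPKM in vehicle cells with NaCl and 1.99 to 2.33 with both, fell by 0.66 (SE 0.157), and Hoxa9, known for its part in blood stem cells, by 0.58 (SE 0.059). The other 7 falls, of Hoxa2, Hoxa10, Hoxa11, Hoxb4, Hoxb5, Hoxb7 and Hoxb8, ran from -0.34 to -0.15.

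Of the 4 genes that led the rises without NaCl, Hoxb9 rose here too, and Hoxb6, Hoxa5 and Hoxa6 were not called. Hoxb6 stood at 52.1 ± 0.25 FPKM in vehicle cells with NaCl and 53.0 ± 2.06 with both, a log2 difference of 0.02 (95% interval -0.06 to 0.10). Hoxa5 was at 10.0 FPKM in both groups, a difference of -0.01 (95% interval -0.18 to 0.17). Hoxa6 went from 7.08 ± 0.632 to 5.66 ± 0.579 FPKM (-0.30, limma adjusted p = 0.125). Without vehicle A and mifepristone C, which are in neither group but share the estimate of the spread, 14 Hox genes were called lower, Hoxa3, Hoxa6 and Hoxb2 in addition. The calls of Hoxa11, Hoxb7 and Hoxb8 were kept in 17, 18 and 16 of 21 alternatives, with highest adjusted p of 0.0907, 0.0697 and 0.102 when single libraries were left out.

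**Figure D3:**
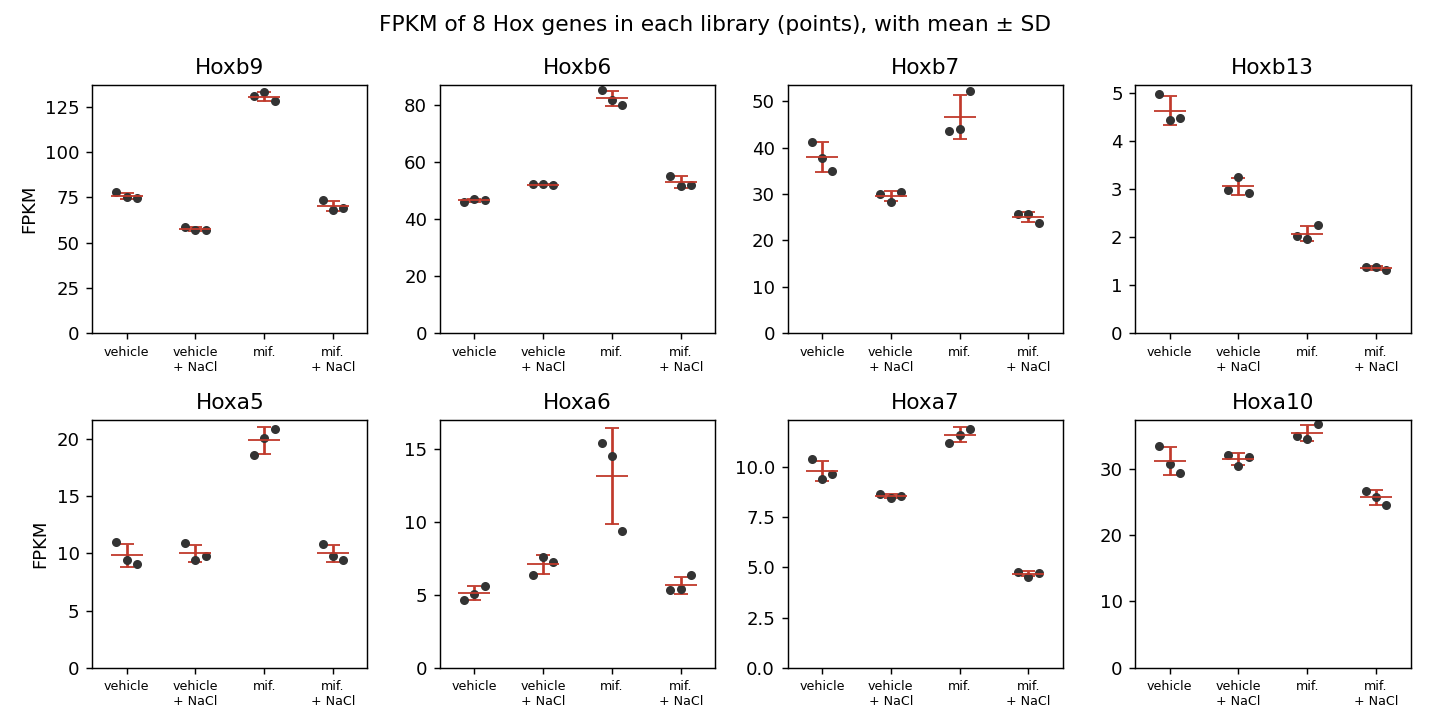
FPKM of 8 Hox genes in each library (points) with mean and SD (red) in the 4 groups; each panel has its own axis from 0. Hoxb9, Hoxb6, Hoxa5 and Hoxa6 are highest with mifepristone alone, Hoxa7 and Hoxa10 are lowest with both treatments, and Hoxb13 steps down from 4.63 FPKM in vehicle cells to 1.36 with both.

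NaCl was compared with none in vehicle cells to see the response to added salt in cells not given mifepristone. The Hox genes moved little and in both directions. Limma called 4 of 19 higher and 7 lower, where all genes gave 56.7% called, 25.2% higher and 31.5% lower, and the median was -0.04 over the Hox genes and -0.02 over all genes. The 4 rises were those of paralogs 4 and 6 in both clusters. Hoxb4 had 8.90, 9.39 and 9.87 FPKM without NaCl and 12.7, 12.5 and 12.5 with it, apart in every library, and rose by 0.40 (SE 0.046, limma adjusted p = 2.81e-05). Hoxa4, its paralog, rose by 0.39 (SE 0.07, limma adjusted p = 0.000706), and Hoxb6 by 0.16 (SE 0.037, limma adjusted p = 0.00384). The rise of Hoxa6 (0.44, SE 0.157, limma adjusted p = 0.0347) was called in 14 of 21 alternatives, with adjusted p from 0.00115 to 0.106.

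Among the 7 falls were those of Hoxb13 (-0.53, SE 0.061), Hoxa2 (-0.44, SE 0.074), Hoxb9 (-0.40, SE 0.04), Hoxb7 (-0.35, SE 0.076), Hoxb8 (-0.35, SE 0.05) and Hoxa7 (-0.18, SE 0.042). Hoxb9 went from 76.0 ± 1.73 to 57.5 ± 0.965 FPKM and Hoxb7 from 38.0 ± 3.19 to 29.6 ± 1.14 (SD, n = 3), with no overlap for either. The sum of the Hoxa cluster was 87.8 ± 4.80 without and 87.2 ± 1.10 FPKM with NaCl, and that of Hoxb 210.7 ± 4.66 and 186.3 ± 1.98.

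In mifepristone cells NaCl lowered nearly the whole of both expressed clusters. Limma called 17 of 19 lower and 1 higher, where all genes gave 58.7% called in this comparison, 24.5% higher and 34.2% lower. The median was -0.77 over the Hox genes and -0.06 over all genes. The log2 falls were largest for Hoxa7 (-1.22, SE 0.042, limma adjusted p = 1.05e-09), Hoxa6 (-1.12, SE 0.157) and Hoxa11 (-1.06, SE 0.081). Those of Hoxa5 (-0.96), Hoxa3 (-0.91), Hoxb9 (-0.89), Hoxa2 (-0.88), Hoxb7 (-0.88), Hoxa9 (-0.84), Hoxb5 (-0.77), Hoxb3 (-0.66) and Hoxb6 (-0.63) followed. Among the smaller falls called were those of Hoxb13 (-0.47), Hoxa10 (-0.45), Hoxb8 (-0.37) and Hoxb4 (-0.12, limma adjusted p = 0.0467).

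Hoxa4 was the exception among the tested genes, with 1.66, 1.82 and 1.76 FPKM without NaCl and 2.11, 2.34 and 2.23 with it. It rose by 0.28 (SE 0.07, limma adjusted p = 0.00503). Hoxb2, at 1.38 ± 0.0951 and 1.17 ± 0.0837 FPKM, was not called (-0.17, limma adjusted p = 0.12). The fall of Hoxb4 depended on the scaling, being -0.07 (adjusted p = 0.241) with median-ratio scaling, and it was called in 7 of 21 alternatives. By cluster, the summed FPKM went from 119.0 ± 1.12 to 67.9 ± 2.21 in Hoxa and from 312.3 ± 0.216 to 186.7 ± 6.61 in Hoxb. The counts of 17 lower and 1 higher were the same without vehicle A and mifepristone C. The mifepristone libraries without NaCl enter both this comparison and that of mifepristone without NaCl, with opposite sign, so the 2 are not independent.

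The interaction asked whether NaCl acted on a gene differently in mifepristone and vehicle cells. Limma gave 13 of 19 Hox genes a lower and 0 a higher term, where all genes gave 31.1% called, 13.6% higher and 17.5% lower. The median was -0.53 over the Hox genes and -0.01 over all genes. For these 13 genes NaCl either lowered the level more in mifepristone cells or lowered it there and raised or did not move it in vehicle cells. The largest terms were those of Hoxa6 (-1.55, SE 0.222, limma adjusted p = 0.000441), Hoxa7 (-1.03, SE 0.059, limma adjusted p = 5.47e-07) and Hoxa5 (-0.99, SE 0.114, limma adjusted p = 0.000101). Hoxa6 and Hoxb6 rose with NaCl in vehicle cells and fell with it in mifepristone cells, and so did Hoxb4, by 0.40 and -0.12, with a term of -0.52 (SE 0.065, limma adjusted p = 0.00019). Of these, the fall of Hoxb4 was called in only 7 of 21 alternatives and the rise of Hoxa6 in 14 of 21.

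By cluster, 8 of 10 Hoxa genes and 5 of 9 Hoxb genes had a lower term, with medians of -0.84 and -0.52. Among those not called were Hoxb3 (-0.63, limma adjusted p = 0.052), Hoxb2 (-0.13), Hoxa4 (-0.11), Hoxb8 (-0.02) and Hoxb13 (0.06). For Hoxb13 the 2 NaCl effects were alike in size, -0.53 in vehicle and -0.47 in mifepristone cells. For Hoxb8 they were -0.35 and -0.37. Hoxb3 was called without vehicle A and mifepristone C (adjusted p = 0.000836), which makes 14 of 19.

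**Figure D4:**
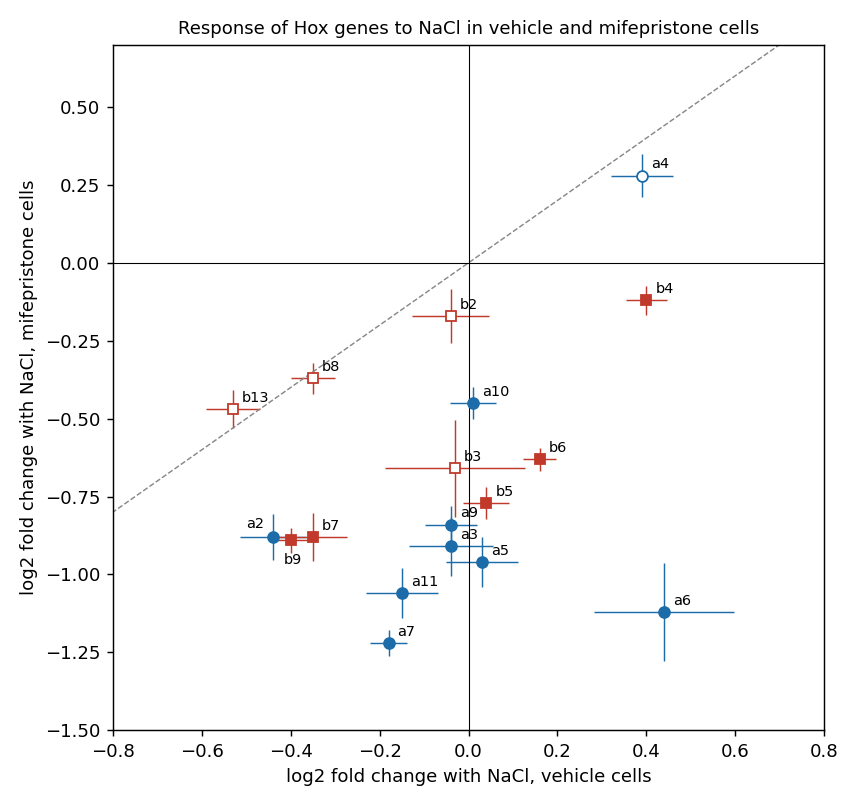
Log2 fold change with NaCl in vehicle cells (x) and in mifepristone cells (y) for tested Hox genes, each with its SE; the axes share no library. Labels give cluster and number, filled symbols have an interaction adjusted p under 0.05, blue circles are Hoxa and red squares Hoxb, and the dashed line marks equal change. The 13 filled genes lie below the line, and Hoxa4, Hoxb2, Hoxb8 and Hoxb13 lie close to it.

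The ratio of the Hoxb to the Hoxa paralog was compared for 7 pairs. The ratio of Hoxb9 to Hoxa9 was 3.65 ± 0.148 in vehicle cells, 2.85 ± 0.0552 with NaCl, 5.42 ± 0.424 with mifepristone and 5.30 ± 0.372 with both (SD, n = 3), so both mifepristone groups lay above both vehicle groups in every library. The ratio of Hoxb3 to Hoxa3 was lower with mifepristone, 1.35 ± 0.126 against 2.46 ± 0.464 without NaCl and 1.77 ± 0.175 against 2.46 ± 0.154 with NaCl. The ratio of Hoxb7 to Hoxa7 was 3.88 ± 0.228 and 4.02 ± 0.311 without NaCl, with overlapping libraries, and stood at 3.46 ± 0.11 and 5.35 ± 0.31 with NaCl. For Hoxb5 over Hoxa5 the mifepristone libraries lay below the vehicle libraries at either salt level, and for Hoxb2 over Hoxa2, Hoxb4 over Hoxa4 and Hoxb6 over Hoxa6 they overlapped at both. With 3 libraries against 3 the smallest p that a two-sided exact permutation test can give is 0.1, so none of the 28 comparisons of such ratios can pass 0.05, and the smallest Benjamini-Hochberg adjusted value was 0.175.

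The 20 Hox genes below the filter had 415 reads in all libraries together, and 290 of these were from Hoxa13, a gene of the distal limb and genital tubercle. Hoxa13 had 81, 63, 61 and 85 reads in the 3 libraries of the vehicle, vehicle plus NaCl, mifepristone and mifepristone plus NaCl groups together. Scaled to depth, its ratio with NaCl to without in mifepristone cells was 1.44 (95% exact counting interval 1.02 to 2.03). This interval covers counting error only, over pooled libraries, and the intervals of the other Hoxa13 ratios include 1. Hoxb1, a gene of the hindbrain, had 14 in all. Hoxc10, a gene of the lumbar level, was the Hoxc member with a visible difference, with 3, 2 and 0 reads in vehicle, 8, 10 and 9 in vehicle plus NaCl, 0 in each mifepristone and 2, 1 and 3 in mifepristone plus NaCl libraries. After scaling to depth the NaCl to vehicle ratio was 5.39 (95% exact counting interval 2.05 to 17.9), and the ratio of mifepristone to vehicle cells with NaCl was 0.22 (0.0744 to 0.545), both for counting error only and over pooled libraries. Its highest value was 0.117 FPKM, so the level stayed far below the filter. Hoxc6 had 6, 11, 7 and 16 reads in the same order of groups, and the interval of each of its ratios includes 1.

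The authors' deposited table of the mutant comparison lists 23 Hox genes, of which 6 carry their mark of a nearby ChIP peak (Hoxa3, Hoxa10, Hoxb2, Hoxb3, Hoxb6 and Hoxb13), against 24.8% of all 23374 genes listed. The authors' deposited table does not give the peak's place, and the marked genes moved in both directions, with Hoxa3, Hoxa10 and Hoxb6 called higher by limma without NaCl, Hoxb13 lower and Hoxb2 and Hoxb3 not called. In the authors' deposited table all 23 Hox genes have an adjusted p of 1 for the mutant comparison, where no gene with an absolute log2 fold change under 1.07 has a smaller one. For the interaction, the authors' deposited table gives an adjusted p for 22 Hox genes, below 1 for 1 of them (Hoxa6, 0.765). In that table no gene with an absolute interaction size under 1.21 has an adjusted p below 1. Hoxa6, at -1.68, lies beyond that size, and the next largest Hox gene is Hoxa3 at -1.12. The limma fit, which tested for a difference of any size, called 13, so the counts cannot be compared directly. In the authors' deposited table of the mutant comparison the log2 fold changes were 1.32 for Hoxa6, 0.78 for Hoxb9 and -1.14 for Hoxb13. Hoxa6 and Hoxb13 thus lie beyond the size of 1.07 given above, so that size alone does not account for their adjusted p there.

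Among noncoding transcripts of the clusters, 6 of 17 listed passed the filter. For the lists that follow, the shares over all genes are 28.3% higher and 31.5% lower (59.7% called) with mifepristone without NaCl, and 24.5% higher and 34.2% lower (58.7% called) with NaCl in mifepristone cells. Without NaCl mifepristone raised 3 of the 6 and lowered 0, with a median of 0.42, and NaCl in mifepristone cells lowered 3 and raised 1, with a median of -0.53. Hoxb5os had 22, 21.9 and 22.5 FPKM in the vehicle libraries A, B and C, 17.4, 19 and 19.7 with NaCl, 41, 40.4 and 39.7 with mifepristone and 22.4, 20.1 and 21 with both. Hoxb5os, an antisense transcript whose gene spans Hoxb5 and Hoxb6 and shares 100 exon bases with Hoxb5, was thus highest in the 3 mifepristone libraries, as Hoxb6 was. It rose by 0.85 (SE 0.049, limma adjusted p = 5.88e-08) without NaCl and fell by 0.92 (SE 0.049, limma adjusted p = 3.82e-08) with NaCl in mifepristone cells. Hoxaas2, an antisense transcript of Hoxa, was not called with mifepristone without NaCl (0.16, limma adjusted p = 0.301). In mifepristone cells it went from 1.74, 1.38 and 1.03 FPKM without NaCl to 0.493, 0.46 and 0.558 with it, with no overlap.

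The libraries hold polyadenylated RNA, so reads over the microRNA loci come from precursors or host transcripts and not from the mature microRNAs shown above. Mir196a-1, between Hoxb9 and Hoxb13, had 63.1, 64.6 and 68.7 FPKM in vehicle, 102.9, 94.0 and 104.6 in vehicle plus NaCl, 65.1, 65.1 and 60.3 in mifepristone and 67.8, 74.2 and 75.0 in mifepristone plus NaCl libraries. It was thus highest with NaCl in vehicle cells, where it rose by 0.61 (SE 0.059, limma adjusted p = 6.16e-06) while Hoxb9 and Hoxb13 on either side fell, and it was not called with mifepristone alone (-0.04, limma adjusted p = 0.546). Mir10a, between Hoxb4 and Hoxb5 and added after its values were seen, had 477 reads in all libraries and 4.26 to 11.8 FPKM, and rose with NaCl in vehicle cells by 0.77 (SE 0.278, limma adjusted p = 0.0356), where Hoxb4 rose too. With mifepristone alone its mean was 9.04 FPKM against 5.99 (0.51, limma adjusted p = 0.135), and with NaCl in mifepristone cells it was 6.07 (-0.46, limma adjusted p = 0.177), neither of them called. Its annotated length is 110 bases and that of Mir196a-1 102, so their FPKM rest on short stretches. Mir10b in Hoxd and Mir196a-2 in Hoxc, which carry the same seeds, were listed at 0 in every library, as were Mir615 and Hotair in Hoxc. Mir196b in Hoxa was also listed at 0, but it lies wholly (100.0% of its bases) within a same-strand exon of Hoxa9, so that reads there cannot be assigned to it and its 0 says nothing of its level.

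**Figure D5:**
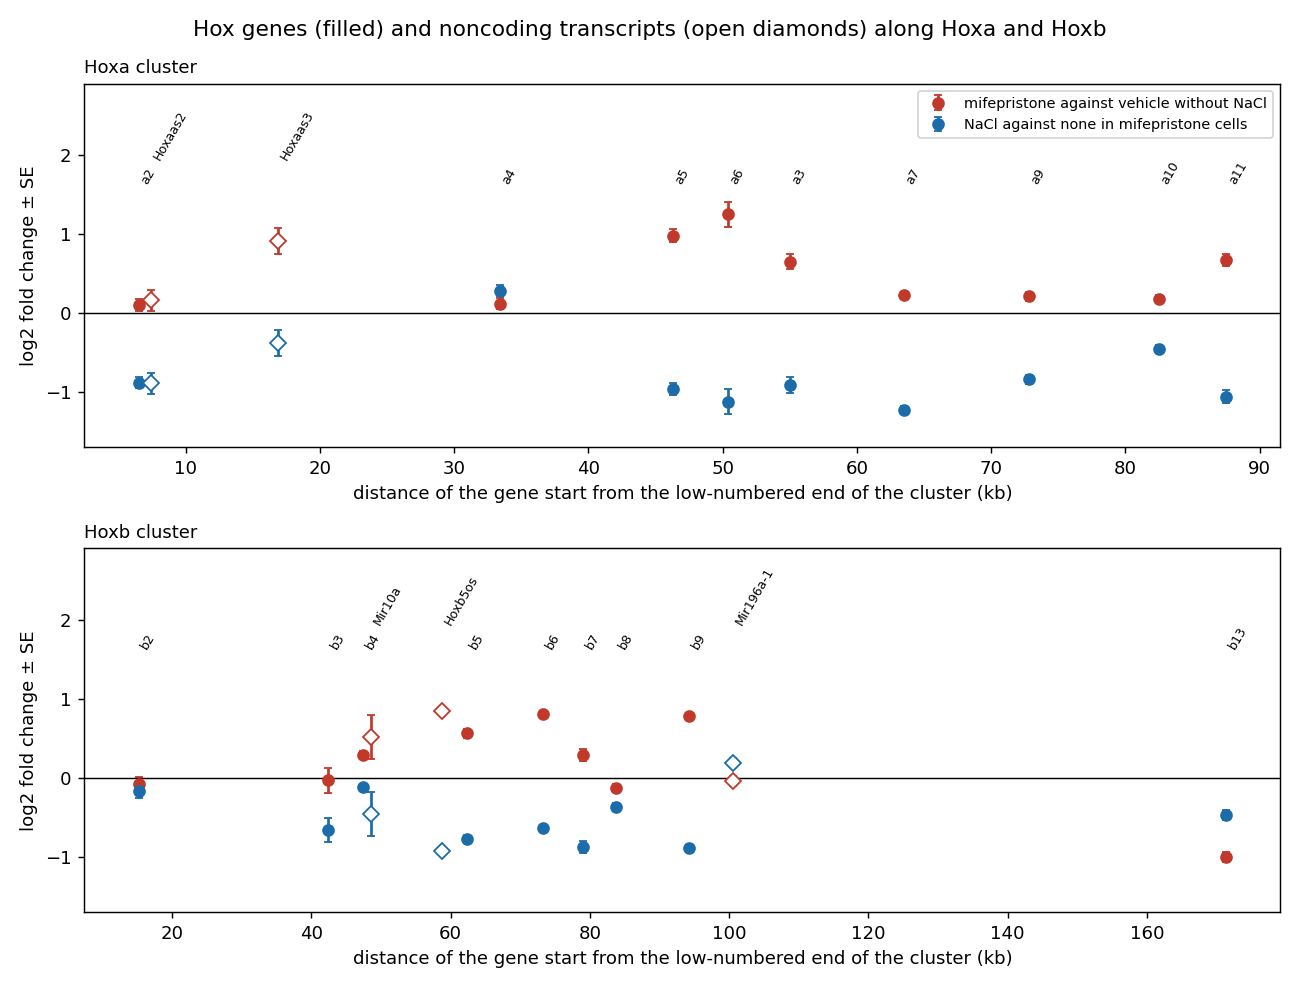
Log2 fold change ± SE along Hoxa (top) and Hoxb (bottom) by distance of the gene start from the low-numbered end of the cluster, with mifepristone against vehicle without NaCl in red and NaCl in mifepristone cells in blue. Both comparisons use the mifepristone libraries without NaCl, with opposite sign, so the red and blue values are not independent. Filled circles are Hox genes (a or b and the number) and open diamonds noncoding transcripts. The called rises (red) of Hox genes lie between Hoxa5 and Hoxa11 and, but for Hoxb8, between Hoxb4 and Hoxb9, those of noncoding transcripts include Hoxaas3 at 16.9 kb, and Hoxb13, set apart by a gap, is at -1.

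The genes beside the clusters and those known to act with Hox proteins were taken from lists. Of 15 protein-coding neighbours 7 were tested, and without NaCl mifepristone raised 2 and lowered 2 (median -0.04), a share called near the 59.7% of all genes. Skap2, beside Hoxa, went from 8.59 ± 0.245 to 10.9 ± 0.255 FPKM (0.33, SE 0.037, limma adjusted p = 1.73e-05), and Mtx2, beside Hoxd, from 13.3 ± 1.21 to 19.2 ± 1.88 (0.51, SE 0.074, limma adjusted p = 0.000118). Mtx2 was thus expressed beside a cluster with 4 reads, while Evx1, at the Hoxa13 end of an expressed cluster, had 2 reads in all.

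Hox proteins bind DNA together with TALE homeodomain cofactors of the Pbx, Meis and Pknox families, of which 7 of 9 were tested. Without NaCl mifepristone raised 1 and lowered 3, near the 59.7% called of all genes, and NaCl in mifepristone cells raised 1 and lowered 4, where 58.7% of all genes were called. Raised with mifepristone was Pbx2, from 10.5 ± 0.172 to 22.8 ± 0.597 FPKM without NaCl (1.08, SE 0.035, limma adjusted p = 6.47e-10). In the presence of NaCl mifepristone raised it as much, from 9.12 ± 0.222 to 19.8 ± 0.66 FPKM (1.07, SE 0.035, limma adjusted p = 5.68e-10). Meis2 fell from 1.37 ± 0.0381 to 0.84 ± 0.0081 FPKM (-0.48, SE 0.062, limma adjusted p = 4.25e-05). None of the 8 caudal, ParaHox and Evx genes passed the filter.

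Polycomb proteins keep Hox genes off, and 22 of 23 listed genes were tested. Without NaCl mifepristone raised 11 and lowered 8 (median 0.14), where all genes gave 28.3% and 31.5%. NaCl in mifepristone cells raised 2 and lowered 12 (median -0.19), where all genes gave 24.5% and 34.2%. In vehicle cells NaCl raised 5 and lowered 12 (median -0.16), where all genes gave 25.2% and 31.5%. Jarid2, a subunit of Polycomb repressive complex 2, rose from 2.46 ± 0.0574 to 7.75 ± 0.254 FPKM (1.48, SE 0.044, limma adjusted p = 3.36e-10). The 12 Trithorax and other activator genes make 13 entries, since 1 symbol has 2 gene identifiers. Without NaCl mifepristone raised 3 and lowered 3 of them (median 0.06), where all genes gave 28.3% and 31.5%. In mifepristone cells NaCl lowered 9 and raised 0 (median -0.26), where all genes gave 34.2% and 24.5%. With NaCl in vehicle cells 5 of them rose and 1 fell (median 0.18), where all genes gave 25.2% and 31.5%. Kdm6b, which removes the Polycomb mark, went from 5.74 ± 0.674 to 4.09 ± 0.691 FPKM without NaCl (-0.45, SE 0.11, limma adjusted p = 0.00431) and from 7.07 ± 0.542 to 2.49 ± 0.0577 with it (-1.34, SE 0.11, limma adjusted p = 1.18e-06).

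Retinoic acid is the classical inducer of Hox genes in the embryo, and 9 of 18 pathway genes were tested. Without NaCl mifepristone raised 4 and lowered 4, and NaCl in mifepristone cells raised 1 and lowered 6 (median -0.96), where 59.7% and 58.7% of all genes were called. In vehicle cells NaCl raised 1 and lowered 7 (median -0.62), where 56.7% of all genes were called. Rarg, a receptor, had 7.21, 7.10 and 7.18 FPKM in vehicle, 5.77, 6.29 and 5.49 in vehicle plus NaCl, 17.7, 17.6 and 17.5 in mifepristone and 7.28, 7.80 and 7.56 in mifepristone plus NaCl libraries. It was thus highest in the same group as Hoxa5, Hoxb6 and Hoxb9, and rose by 1.24 without NaCl (SE 0.045, limma adjusted p = 1.46e-09). Aldh1a2, which makes retinoic acid, fell from 24.7 ± 0.90 to 3.11 ± 0.167 FPKM (-2.80, SE 0.04, limma adjusted p = 4.19e-12). Whether any of these genes has a part in the Hox values was not tested.

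Of 20 kidney development factors 10 were tested, with 5 higher and 4 lower with mifepristone without NaCl, and 4 higher and 6 lower with NaCl in mifepristone cells, where 59.7% and 58.7% of all genes were called. Pax8 and Pax2, genes of the nephric lineage, fell by 0.60 and 0.42 with mifepristone and rose with NaCl in vehicle cells by 1.05 and 2.52, where Hox genes moved by at most 0.53 in either direction.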

How the data were processed

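The authors' deposited table gives FPKM per gene in 12 libraries of polyadenylated RNA. Per the submitters' processing notes, Trimmomatic 0.32, STAR 2.4.2a, SAMtools 1.0 and DESeq2 1.12.3 were used with GRCm38 (mm10); the counting step is not given in the sources used here. Per comparison, the authors deposited log2 fold changes, a mean signal (normalized count), adjusted p-values, the size of the interaction on a log2 scale and a mark for a nearby ChIP peak. Columns named for the mutant were matched to the mifepristone samples by their NaCl part and letter and by knowledge of the study.

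Whole reads were recovered from FPKM and the mean signal (100.0% of values whole within 0.05 in each library), with 41940955 to 49270776 reads per library. Pairs of libraries within a group differed by more than counting noise (chi-square per gene 2.05 to 40.12), so all 12 were kept. The 14044 genes that reached 1 FPKM in 3 or more libraries were fitted as log2(FPKM + 0.5) with limma 3.58.1 in R 4.3.3 on all 4 groups, with Benjamini-Hochberg adjustment over all of them and a threshold of 0.05. The script was tested on simulated data. Alternatives were pseudocounts, filters, scalings, voom on the recovered reads, a replicate block and leaving out each library. A fit without both vehicle A and mifepristone C was chosen after seeing the data. The Hox genes and all lists were chosen with earlier results of these data known. The rule named all Hox genes, and of each other list up to 4 genes with the smallest adjusted p; some of these genes are counted but not reported here, in the text or the plots. Gene positions are from GENCODE M21 on GRCm38. Intervals on reads are exact and cover counting error only.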

Additional observations from a re-analysis of the deposited data

Results flagged for a closer look

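For 13 Hox genes the effect of NaCl differed between mifepristone and vehicle cells by the limma interaction term, each with an adjusted p under 0.05. The terms, NaCl effect in mifepristone minus that in vehicle cells on the log2 scale, were -0.44 for Hoxa2, -0.87 for Hoxa3, -0.99 for Hoxa5, -1.55 for Hoxa6, -1.03 for Hoxa7, -0.80 for Hoxa9, -0.47 for Hoxa10 and -0.91 for Hoxa11. In Hoxb they were -0.52 for Hoxb4, -0.81 for Hoxb5, -0.79 for Hoxb6, -0.53 for Hoxb7 and -0.49 for Hoxb9.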

How the results depend on the processing

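Over 21 alternative settings, 1960 values of single Hox genes were recomputed, of which 1892 kept their direction and side of the threshold, 46 lost the call, 22 gained one and 0 reversed, and 14 of 95 gene comparisons changed a call under at least 1 setting. Without a filter on low values, with a filter of 5 FPKM, and without vehicle A and mifepristone C, 1 Hox gene was called lower with mifepristone without NaCl, and 1 to 3 were when single libraries were left out. With the filter of 5 FPKM, which drops Hoxb13, NaCl in vehicle cells called 7 Hox genes, 4 of them lower, and NaCl in mifepristone cells called 0 higher, against 2 with no filter. Over all genes, no filter gave 6088 higher with mifepristone in NaCl and 5876 higher with NaCl in mifepristone cells, and the filter of 5 FPKM gave 2269 of the latter and 1174 with a higher interaction; the number of genes tested differs in both. With single libraries left out the interaction called 3512 to 6784 of all genes, 1547 to 3148 of them higher, the most without mifepristone C. Same-letter libraries of different groups had correlations of their deviations from -0.5 to 0.288, above 0.1 in 6 of 18 pairs, so the letters were not taken to pair the samples. With a replicate block the Hox counts were 12 higher and 2 lower, 1 and 11, 3 and 7, 1 and 16, and 0 and 13 in the order of the report.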
